A study of Mus musculus with 2 samples.

Results

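The cells described here are liver cells chosen by the plasma cell transcripts Jchain, Mzb1 and Derl3 in 2 droplet single-cell RNA libraries of mouse liver. Cells were barcodes that held no fewer than 500 unique molecular identifiers (UMIs, counts of captured transcripts) from no fewer than 250 genes, with at most 20% of the UMIs mitochondrial. A cell was a member when its UMIs of Jchain, Mzb1 and Derl3 summed to at least 15, at least 2 of these genes were detected, and its UMIs of the neutrophil genes S100a8 and S100a9 summed to less than 30. By this rule 64 of 3035 cells were members, 55 of 1886 Control cells and 9 of 1149 PCB126 cells. The values of these 5 genes chose the cells and are given as description. The rule also set apart cells with at least 2 UMIs of Siglech, the receptor that marks plasmacytoid dendritic cells. No member had a single Siglech UMI, so that group was empty. The Control members as a group and 6 of the PCB126 members had the markers of plasma cells. The other 3 PCB126 members (cells 3, 7 and 8) had those of B cells. Among the 55 Control members, 3 also held at least 10 UMIs of the B cell gene Ms4a1. The PCB126 share of cells, immunoglobulin share and heavy chain classes are therefore also given without PCB126 cells 3, 7 and 8. Parts of the comparison of the libraries are also given for 2 smaller choices of cells that leave them out. Other summed PCB126 values include them.

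Each library came from the liver of 1 C57/BL6 mouse labelled postnatal day 21. The Control mouse received peanut oil by gavage, although its treatment label reads "Untreated". The other mouse received PCB126, a polychlorinated biphenyl and strong agonist of the aryl hydrocarbon receptor, at 20 µg/kg/day, although the protocol speaks of a single gavage. Exposure lasted 5 weeks and ended with a 12-hour fast, after which hepatocytes were depleted by spins and a 30 µm strainer, red cells were lysed and 6000 cells were targeted. With 1 mouse and 1 library per group, treatment, mouse and library cannot be told apart. No test between groups was possible, and intervals are exact 95% intervals that cover counting error only.

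Plasma cells are the end stage of the B cell lineage and secrete antibody. On leaving the B cell program, which the factor Pax5 maintains, they come under the factors Blimp1 (gene Prdm1), Irf4 and Xbp1, and they enlarge the endoplasmic reticulum (ER) that folds the antibody. J chain, the product of Jchain, links antibody units into IgM and IgA polymers, Mzb1 is an ER protein that assists antibody assembly, and Derl3 takes part in clearing misfolded ER proteins. Plasmablasts are their dividing precursors.

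Markers outside the rule bore out plasma cells for the Control members as a group and for 6 of the 9 PCB126 members. They did not bear out plasmacytoid dendritic cells. The exceptions, PCB126 cells 3, 7 and 8, held 1, 1 and 0 Xbp1 UMIs and 96, 30 and 30 UMIs of Ms4a1 (CD20), a B cell gene. Xbp1, which was not part of the rule, was detected in 55 of 55 Control members (lowest 1, median 27, highest 122 UMIs) and in 8 of 9 PCB126 members (0 to 49 UMIs). The surface proteoglycan Sdc1 (CD138) had 111 UMIs in 41 Control members and 9 UMIs in 3 PCB126 members, against 0 in all B cells and conventional dendritic cells of both libraries. Of 22 plasmacytoid dendritic genes 8 were at 0 in the Control members (Siglech, Klk1, Cox6a2, Cd300c, Klra17, Cd209d, Smim5 and Grm8), and the list summed to 1809 UMIs, mostly Ly6d and Tcf4. Of the list's genes with enough UMIs, 6 of 9 lay above the Control conventional dendritic cells and 3 of 9 above the Control B cells. Bst2, an interferon-induced membrane protein, had 119 UMIs in 40 Control members, and Ccr9, a gut-homing receptor, had 20 in 8. Several genes of the list are also used by B lineage cells. Tcf4 had 376 UMIs in the Control members and a ratio of 0.848 (0.677 to 1.07) to the Control B cells. Ly6d, a lymphoid surface protein, had 1113 UMIs there and a ratio of 0.944 (0.824 to 1.09). In the PCB126 over Control members 6 of 7 genes of the list lay above 0 (median 1.43), with Bst2 and the ion pump subunit gene Atp1b1 called. In members of at least 10% immunoglobulin UMIs 5 of 6 lay above 0 (median 1.11). In members under 10 Ms4a1 and under 20 liver endothelial UMIs 3 of 6 did (median 0.81). Each of these choices called 2 genes higher in the PCB126 members and 1 higher in the Control members. Siglech itself had 9 UMIs among all 8550 Control barcodes and 14 among all 4307 PCB126 barcodes, with at most 2 and 3 in a cell.

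Members were deeply sampled cells. Their median was 22387 UMIs among Control members (2153 to 78251) and 28019 among PCB126 members (12089 to 37773), against medians of 5288.5 and 6623 over all cells. Mitochondrial UMIs made up a median of 3.22% per Control member and 6.57% per PCB126 member. No barcode sequence was shared by the cells of the libraries, and none of the 28 and 11 barcodes left out as likely doublets in an alternative was a member. Near the limit, the lowest members had a marker sum of 15 (Control) and 17 (PCB126), and the nearest cells outside had 10 and 12. A Control cell with a marker sum of 662 stayed outside because it carried 151 S100a8 and S100a9 UMIs.

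Members made up a larger share of the Control cells than of the PCB126 cells. They were 2.92% of Control cells (Clopper-Pearson interval 2.20 to 3.78) and 0.783% of PCB126 cells (0.359 to 1.48). The Control share was thus 3.72 times the other. Members with under 10 Ms4a1 UMIs, a choice made after the cells were seen that leaves out PCB126 cells 3, 7 and 8 and 3 Control cells, were 52 Control cells (2.76%) and 6 PCB126 cells (0.522%, 0.192 to 1.13), a ratio of 5.28. A marker sum of 15 per 5000 UMIs gave a member share ratio, Control over PCB126, of 5.69. The size of this ratio moved with the mitochondrial limit: at most 10% mitochondrial UMIs gave 1.94, and at most 50% gave 6.41. B cells, taken as cells with at least 5 UMIs of Cd79a, Cd79b and Ms4a1 over at least 2 of these genes, numbered 21 among the Control cells (1.11%) and 53 among the PCB126 cells (4.61%). These are shares of the suspensions after hepatocyte depletion, not of the livers.

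Immunoglobulin transcripts filled a large part of the members' RNA. In the Control members they took a median of 30.5% of a cell's UMIs (4.84 to 62.8) and 28.8% of the summed UMIs. In the PCB126 members the median was 11.9% (1.38 to 50.9) and the sum 18.8%. B cells held 1.37% and 1.75% of their summed UMIs as immunoglobulin in the Control and PCB126 libraries, and the highest single B cell reached 2.68% and 3.99%. The 55 Control members carried 92.6% of all immunoglobulin UMIs in their library and the 9 PCB126 members 84.7% of theirs. The PCB126 cells 3, 7 and 8, described further on, had 3.16%, 3.89% and 1.38% and lay within the range of the PCB126 B cells. Without these cells the median of the other 6 PCB126 members was 27.0% (6.98 to 50.9).

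**Figure D1:**
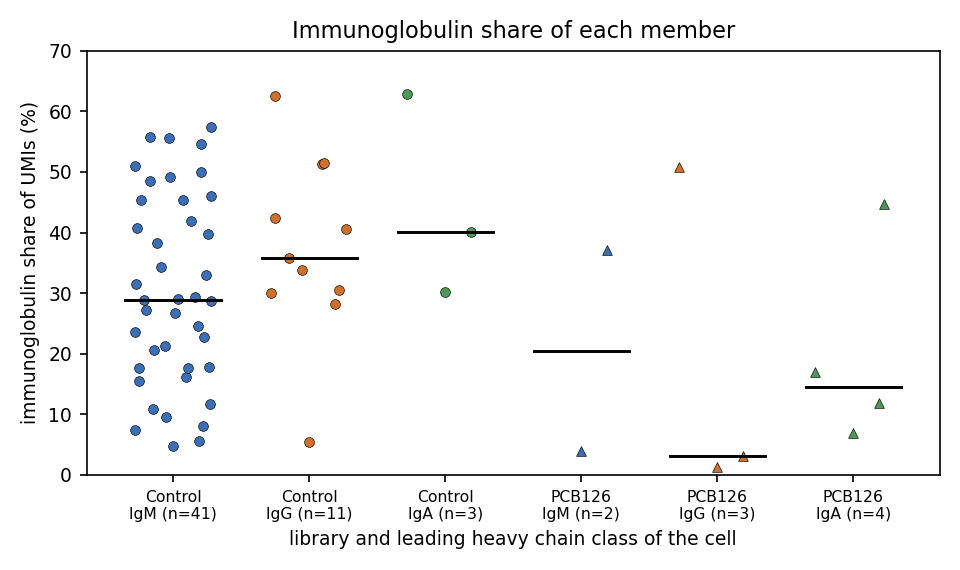
Immunoglobulin share of each member's UMIs (vertical axis, percent) by library and leading heavy chain class, 1 point per cell, with a bar at the median. The 41 Control IgM cells span 4.84% to 57.4%, and 3 PCB126 cells lie under 4%.

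The Control plasma cells were mainly IgM cells. Each member was assigned to the heavy chain constant gene with the most UMIs, and in the Control members that gene held at least 95.3% of the cell's heavy constant UMIs. Ighm led in 41 of 55 Control members (74.5%, 61.0 to 85.3), Ighg2b in 7, Ighg1 in 3, Igha in 3 and Ighg3 in 1. The PCB126 members were led by Igha in 4 of 9 cells (44.4%, 13.7 to 78.8), by Ighm in 2 (22.2%, 2.81 to 60.01), and by Ighg1, Ighg3 and Ighg2b in 1 each. The Ighg2b cell had 8 UMIs of that gene, which tied with another heavy chain gene, so its class is uncertain. Under 10 Ms4a1 UMIs, Ighm led in 39 of 52 Control members (75%, 61.1 to 86.0) and in 1 of 6 PCB126 members (16.7%, 0.421 to 64.1). Igha led in 4 of those 6 PCB126 members (66.7%, 22.3 to 95.7) and in 3 of the 52 Control members (5.77%, 1.21 to 15.9). Among members with at least 10% immunoglobulin UMIs, Ighm led in 36 of 49 Control cells (73.5%, 58.9 to 85.1) and in 1 of 5 PCB126 cells (20%, 0.505 to 71.6), and these intervals overlap. The cells of a library are not replicates of its condition. The kappa light chain led in 51 Control and 7 PCB126 members, and lambda in 4 and 2. Sequence similarity among IgG genes leaves the split between IgG subclasses less certain than that between IgM, IgG and IgA.

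The variable (V) genes of the Control members were diverse. V segments lie far from the captured 3′ end, so the median cell had 29 heavy and 66 light V UMIs against 2150 heavy constant UMIs. A heavy and a light V gene could be called, with at least 10 UMIs and 50% of the cell's V UMIs each, in 42 Control members. These 42 cells held 36 heavy V genes, 27 light V genes and 40 distinct pairs. A pair recurred in 2 cases, Ighv3-6 with Igkv6-32 and Ighv9-3 with Igkv3-5, each in 2 IgM cells. Ighv11-2 with Igkv14-126, a pair known from B-1 cells that bind phosphatidylcholine, led in 2 Control IgM members, with 26 and 5 heavy V UMIs, and the second of these was under the minimum. In the PCB126 library 3 members had both V genes called, and no pair was seen in both libraries. V genes with near-identical copies can be confused in such counts, so a pair is no proof of a clone.

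The rule genes varied widely among the members. Jchain ranged from 0 to 1703 UMIs in the Control members (median 330) and from 2 to 965 in the PCB126 members (median 215). Mzb1 ranged from 3 to 359 (median 75) and from 0 to 120 (median 35). Derl3 ranged from 0 to 27 (median 5) and from 0 to 14 (median 3). Cells outside the members hold few of these transcripts by the rule's own construction. Across the 55 Control members the share of Jchain among non-immunoglobulin UMIs went with the immunoglobulin share (Spearman's rho 0.74), a description over cells of 1 library that share mouse and processing.

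To see what sets the members apart from the B cells of the same mouse, UMIs were summed over the 55 Control members and the 21 Control B cells and scaled to counts per 1e6 non-immunoglobulin UMIs (CPM). A gene with at least 50 UMIs in both groups together was called when the whole counting interval of its ratio lay past 2-fold. The members were higher for 263 of 2723 genes (9.66%) and the B cells for 126 (4.63%). The cells of each group came from 1 library, so these calls compare 2 sets of cells and not replicates. Scaled by all UMIs, which immunoglobulin dilutes in the members, the split was 158 higher and 237 lower. Median depth also differed, at 22387 UMIs in the members and 6813 in the B cells.

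The plasma cell regulators and surface proteins were among the genes higher in the members. Xbp1 had 1722 UMIs in the Control members and 4 in the B cells, a CPM ratio of 94.2 (36.7 to 346). Eaf2, a transcription elongation factor gene, had 476 UMIs against 0, at least 34.7-fold higher when the B cell sum is set to 3 UMIs. Prdm1, which encodes Blimp1, had 170 against 3 UMIs, a ratio of 12.4 (4.17 to 60.7). Irf4 had 214 against 21 UMIs, and its ratio of 2.23 (1.42 to 3.68) was not past 2-fold over the whole interval. Tnfrsf17, the receptor BCMA through which plasma cells receive survival signals, had 105 UMIs in 29 members and 0 in the B cells. Slamf7, a surface receptor, had 216 against 2 UMIs. Of 15 plasma cell identity genes 12 lay above 0 on the log2 scale (median 4.24), against a median of -0.05 over 5316 genes. The list shares Txndc5 and Fkbp11 with the chaperone list that follows. Cd79a and Cd79b, the signalling chains of the B cell receptor, were the called exceptions at 0.376 and 0.381 times the B cell level, and both had been used to choose the B cells.

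The protein-folding and export machinery of the ER was higher in the members as a group. All 22 ER chaperone and folding genes measured lay above 0 (median log2 ratio 3.28), and 19 of the 21 with enough UMIs were called. Hsp90b1, the ER chaperone Grp94, had 6283 UMIs in the members and 45 in the B cells, a ratio of 30.6 (22.8 to 41.9). Fkbp11, an ER prolyl isomerase, had 656 UMIs against 0 and was at least 47.9-fold higher. The disulfide isomerase gene Txndc5 was 39.3 times higher (20.7 to 86.2), Creld2 68.5 times (18.9 to 567), Manf 19.0 times (11.8 to 32.7) and Sdf2l1 24.3 times (10.4 to 75.2). Hspa5 (BiP), the most general ER chaperone, was 9.20 times higher (6.94 to 12.5).

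The further steps of the secretory route went the same way. All 13 genes of ER-associated degradation lay above 0 (median 3.07, 12 called), with Edem1, a mannosidase-like protein of that route, at 853 against 14 UMIs. All 24 genes of the translocon, signal peptidase and oligosaccharyl transfer lay above 0 (median 2.48, 19 called), for example the signal peptidase subunit Sec11c with 2188 against 35 UMIs. All 16 vesicle transport and Golgi genes lay above 0 (median 2.53, 9 of 15 called), led by Creb3l2, a transcription factor of the secretory pathway, with 190 UMIs against 0, and Lman1, a cargo receptor, with 552 against 4. The PERK arm and the sensors of the unfolded protein response were less marked: 6 of 7 genes lay above 0 (median 1.21) and none of the 4 with enough UMIs was called. Among these, the stress factor Ddit3 (CHOP) had 50 UMIs in the Control members, and Atf4 had 274.

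Many of these ER genes are known targets of the unfolded protein response, and the upstream DNA of a part of them holds its response elements. Promoter stretches of RefSeq genes (GRCm38.p6, 250 bases before to 50 after the start) were searched on both strands for the ER stress response element ERSE (CCAAT and CCACG with 9 bases of any kind between them), for ERSE-II (ATTGG and CCACG with 1 base between them) and for the unfolded protein response element UPRE (TGACGTGG). An exact match to ERSE was found in 37 of 27025 genes (0.137%), to ERSE-II in 12 (0.0444%) and to UPRE in 193 (0.714%). Of the 18 ER chaperone genes found in the table, 7 held ERSE (38.9%), and over the 60 genes matched from the secretory lists 16 held at least 1 of the motifs (26.7%), against 239 of all 27025 genes (0.884%). The lists differed: at least 1 motif was found in 10 of 18 chaperone genes, 3 of 12 degradation genes, 2 of 12 vesicle transport genes and 1 of 18 translocon genes, and ERSE in 0 genes of the last 2 lists. No match in a gene says only that these letters are not in this window. The stretches of 4 genes are shown because the rule gene Derl3 and highly ranked members of the secretory lists carry the motif upstream of the start. They are written 5′ to 3′ on the gene's strand, with the matches in capitals. Derl3 (chr10:75893222-75893280, plus strand) and Creld2 (chr15:88819500-88819558, plus strand) carry ERSE in the opposite orientation, Hsp90b1 (chr10:86705513-86705676, minus strand) carries it in both orientations, and Herpud1 (chr8:94386357-94386407, plus strand), an ER degradation gene, carries ERSE-II.
Derl3: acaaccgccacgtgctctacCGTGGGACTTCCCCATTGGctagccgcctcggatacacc
Hsp90b1: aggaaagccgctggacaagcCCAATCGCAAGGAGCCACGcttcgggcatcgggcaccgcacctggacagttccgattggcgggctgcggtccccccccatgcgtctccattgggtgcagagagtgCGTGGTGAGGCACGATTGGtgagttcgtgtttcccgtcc
Creld2: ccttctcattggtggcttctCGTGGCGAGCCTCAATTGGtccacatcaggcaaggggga
Herpud1: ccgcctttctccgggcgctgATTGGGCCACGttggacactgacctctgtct
Herpud1 itself had 365 UMIs in the Control members and 9 in the B cells, a ratio of 8.88 (4.62 to 19.6).

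The B cell program was lower in the members. All 10 B cell identity genes measured lay below 0 (median -3.65), and the 8 with enough UMIs were called, among them Ms4a1, which had been used to choose the B cells. Pax5, the B cell master regulator, had 66 UMIs in the 21 B cells and 11 in the 55 members, 27.4 times higher in the B cells (14.4 to 57.6). Cd22, an inhibitory receptor of B cells, had 50 UMIs against 1, and Siglecg, a related receptor, had 55 against 5. Bank1, a B cell scaffold protein, had 104 against 13 UMIs.

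Antigen presentation split by class. All 7 MHC class II genes measured lay below 0 (median -2.74) and 6 were called, with H2-Aa at 289 UMIs in the members against 481 in the B cells, a ratio of 0.131 (0.113 to 0.152). Their invariant chain Cd74 was nevertheless detected in 55 of 55 members at 2397 CPM, against 5166 CPM in the B cells. All 10 MHC class I genes lay above 0 (median 0.75) and 1 was called. The S100a6 transcript, a calcium-binding protein, stood at 7 UMIs in the members and 439 in the B cells, where 10 of 21 cells held it.

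The same contrast in the PCB126 library, 9 members against 53 B cells, gave 130 of 1071 genes higher in the members (12.1%) and 59 lower (5.51%). These 9 members included the PCB126 cells with B cell markers, and the contrast is not given without them. ER chaperones lay above 0 for 19 of 20 genes (median 3.16), the translocon list for 24 of 24 (2.25) and the B cell identity list for 0 of 12 (median -2.07). Xbp1 had 158 UMIs in the members and 5 in the B cells, a ratio of 47.1 (19.8 to 147). Against the 44 conventional dendritic cells of the Control library, the Control members were higher for 382 of 3985 genes (9.59%) and lower for 479 (12%). In that contrast too, all 22 ER chaperones lay above 0 (median 2.59), and the 10 MHC class II genes lay below 0 (median -4.31).

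Within the Control members, the cells of different heavy chain class differed in a few genes. The 11 IgG members were set against the 41 IgM members by the same rule, a comparison added after the cells had been seen. It called 11 of 2189 genes higher in IgG cells (0.503%) and 49 higher in IgM cells (2.24%), or 5 and 93 when scaled by all UMIs. The median depth was 22479 UMIs in the IgG cells and 22387 in the IgM cells, and the median immunoglobulin share was 35.8% and 28.8%. The IgG cells included an Ighg2b cell with at least 10 Ms4a1 UMIs and 5.36% immunoglobulin. Cells at that Ms4a1 level were also among the IgM cells.

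Slpi, a secreted inhibitor of leukocyte proteases, showed the largest ratio by the lower bound of its interval. It had 1912 UMIs in 9 of 11 IgG members and 18 UMIs in 3 of 41 IgM members, a CPM ratio of 566 (357 to 958). The IgG cells held 573, 344, 298, 266, 180, 135, 84, 30, 2, 0 and 0 UMIs. Of these, the IgG1 cells held 298, 180 and 135, and the IgG3 cell held 30. The 3 IgM cells with Slpi held 14, 3 and 1, and of the 3 IgA cells 1 held 107 and the others 0. The groups overlapped at the low end, where 2 IgG cells had no Slpi UMI. Slpi is also a neutrophil transcript: 929 of 1830 other Control cells had it, with at most 72 UMIs, and 734 of those had at least 30 S100a8 and S100a9 UMIs. In the IgG members S100a8 stood at 0 to 2 UMIs and S100a9 at 0 to 3. The Control B cells had 0 Slpi UMIs. In the PCB126 library Slpi had 16 UMIs in 3 members, with 8 in an IgM cell, 7 in an IgA cell and 1 in an IgG cell.

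Xbp1 was also higher in the IgG members, by 2.60 times (2.34 to 2.89), with a median of 52 UMIs per cell (9 to 122) against 26 (1 to 83) in the IgM cells. Dnajb9, an ER co-chaperone, was 3.36 times higher (2.44 to 4.59), with 44 of its 68 UMIs in 1 IgG cell. Fut8, which adds the core fucose to antibody sugars, was 4.93 times higher (3.44 to 7.08), and Chchd10, a mitochondrial protein, 5.24 times (3.60 to 7.64). The ER chaperone list as a whole showed 15 of 22 genes above 0 (median 0.45), beside a median of -0.10 over 4505 genes. In the 3 Control IgA cells Xbp1 stood at 4120 CPM, above the 3505 CPM of the IgG cells, and Fut8, Chchd10 and Dnajb9 stood below the IgG cells. In the few PCB126 cells Fut8 went the other way (9 UMIs in 2 IgM cells, 6 UMIs in 3 IgG cells). Xbp1, Chchd10 and Dnajb9 kept their direction there.

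**Figure D2:**
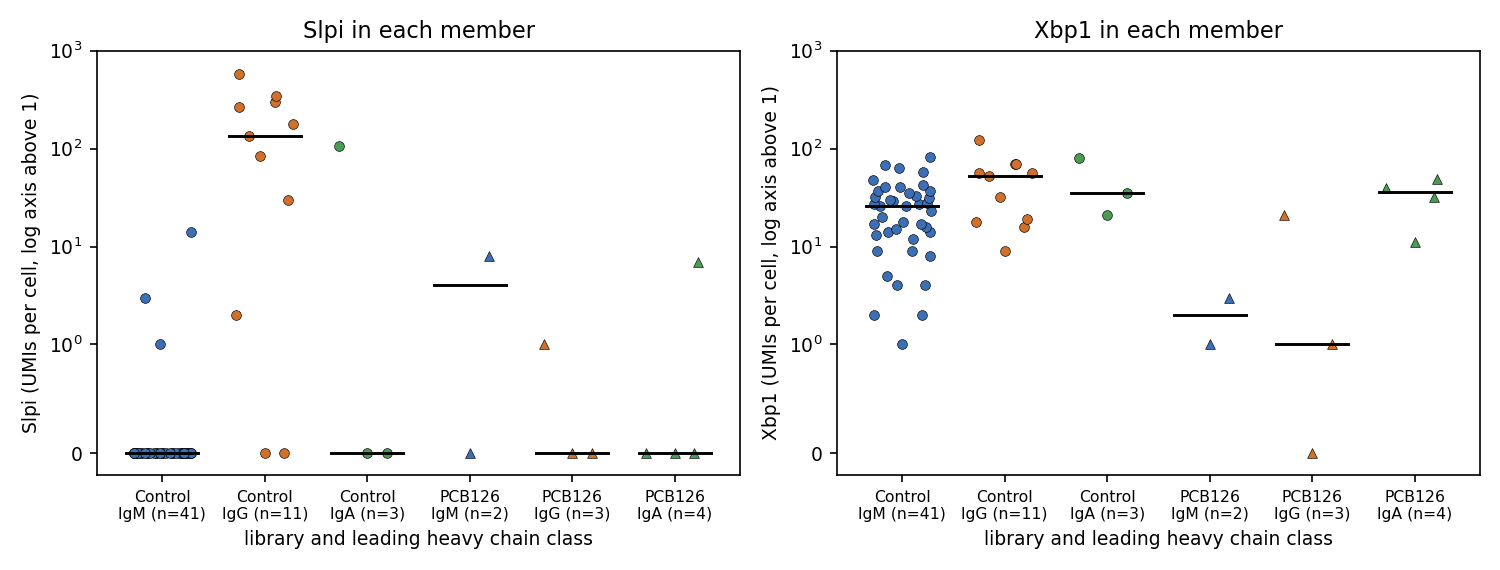
UMIs of Slpi (left) and Xbp1 (right) in each member by library and leading heavy chain class, on an axis that is linear up to 1 and logarithmic above, with a bar at the median. Slpi reaches 573 UMIs in the Control IgG cells and at most 14 in the IgM cells.

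The genes higher in the IgM members included cell cycle genes, histone genes and 2 surface receptors. All 14 cell cycle genes lay below 0 in the IgG over IgM ratio (median -2.13) and 7 were called, among them the proliferation antigen Mki67 with 676 UMIs in the IgM cells and 45 in the IgG cells. The histone gene Hist1h1b had 589 UMIs in 17 IgM cells and 8 UMIs in 2 IgG cells. Ctla4, an inhibitory receptor better known from T cells, had 105 UMIs in 20 of 41 IgM members (highest 26) and 0 in the 11 IgG members. It was not confined to IgM cells, with 2 UMIs in 2 of 3 Control IgA cells and 17 UMIs in 3 of 4 PCB126 IgA cells. The 2 PCB126 IgM cells held 0 Ctla4 UMIs. Cd36, a fatty acid and lipid receptor, had 81 UMIs in 19 IgM members and 0 in the IgG members. Against these, the Control B cells had 2 Ctla4 UMIs in 1 of 21 cells and 9 Cd36 UMIs in 2. A single IgG cell carried 24 of the 45 Mki67 UMIs, and without it 100 genes were called higher in the IgM cells.

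A part of the plasma cells carried a cell cycle program. Mki67 was detected in 37 of 55 Control members (67.3%, or 30.9% after each cell was thinned to 1000 non-immunoglobulin UMIs), against 23.8% and 9.52% of the Control B cells. The intervals of the thinned shares, 19.1 to 44.8 and 1.17 to 30.4, overlapped. In the Control members Mki67 ranged from 0 to 79 UMIs with a median of 3. The cell cycle list as a whole differed little from the Control B cells. Of its 14 genes 8 lay above 0 and 6 below (median log2 ratio 0.15), with 2 called. By the share of 14 cell cycle genes among non-immunoglobulin UMIs, the Control members fell apart at a gap between 0.148% and 0.346%. The 14 cells above the gap were 13 IgM cells and 1 IgG cell. The 41 below it were 28 IgM, 10 IgG and 3 IgA cells.

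The cells with more cell cycle transcripts held less immunoglobulin. Above the gap the median immunoglobulin share was 13.6% (4.84 to 34.2) and below it 39.8% (5.36 to 62.8), and the ranges overlapped. Median depth was 34346.5 UMIs above and 20300 below. Spearman's rho between the cell cycle share and the immunoglobulin share was -0.37 within the 41 cells below the gap and 0.19 within the 14 above it, as a description of cells from 1 library. Over all 55 Control members rho between the cell cycle share and the immunoglobulin share was -0.575. The summed share of the secretory lists showed no such relation to the immunoglobulin share (rho 0.01 over the same 55 cells). The gap was placed after the values had been seen. Whether depth has a part in the difference was not tested beyond the values given.

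**Figure D3:**
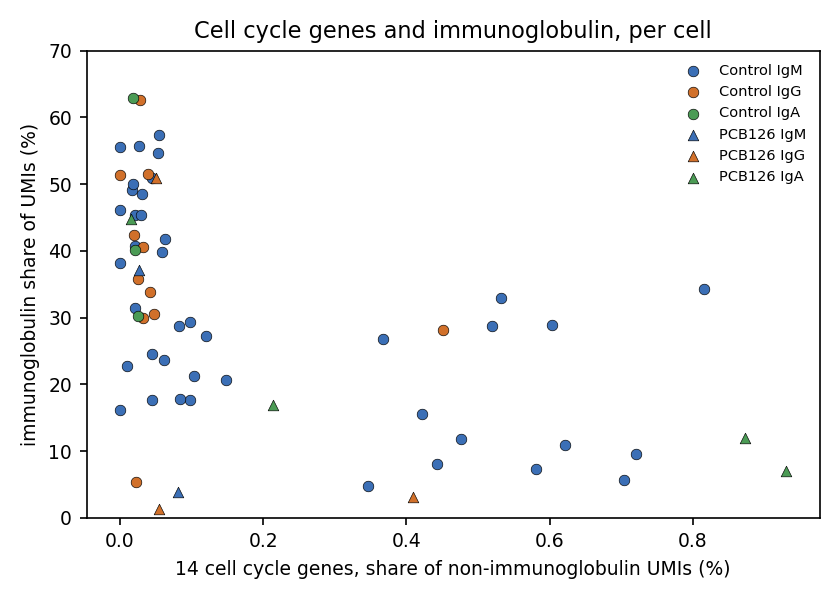
Share of 14 cell cycle genes among non-immunoglobulin UMIs (horizontal axis, percent) and immunoglobulin share of all UMIs (vertical axis, percent) for each of the 64 members, coloured by heavy chain class. Control members with at least 0.346% cell cycle UMIs reach at most 34.2% immunoglobulin, while those under 0.148% reach 62.8%.

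The 9 PCB126 members were a mixed set, and each is described before they are compared with the Control members. Cells 3, 7 and 8, numbered by falling UMI total, carried 96, 30 and 30 UMIs of Ms4a1 and 49, 27 and 20 of Ltb (lymphotoxin beta). The other 6 carried 0 of either. The same 3 cells had 18, 4 and 2 Jchain UMIs and 1, 1 and 0 Xbp1 UMIs, and met the rule with 19, 21 and 15 UMIs of Mzb1, a gene also detected in 39 of 53 PCB126 B cells. Cells 1, 2, 4, 5, 6 and 9 had 181 to 965 Jchain and 3 to 49 Xbp1 UMIs. Cells 4 and 9 also carried 132 and 48 UMIs of 11 liver endothelial genes, whereas the other 7 had 0 to 4.

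**Figure D4:**
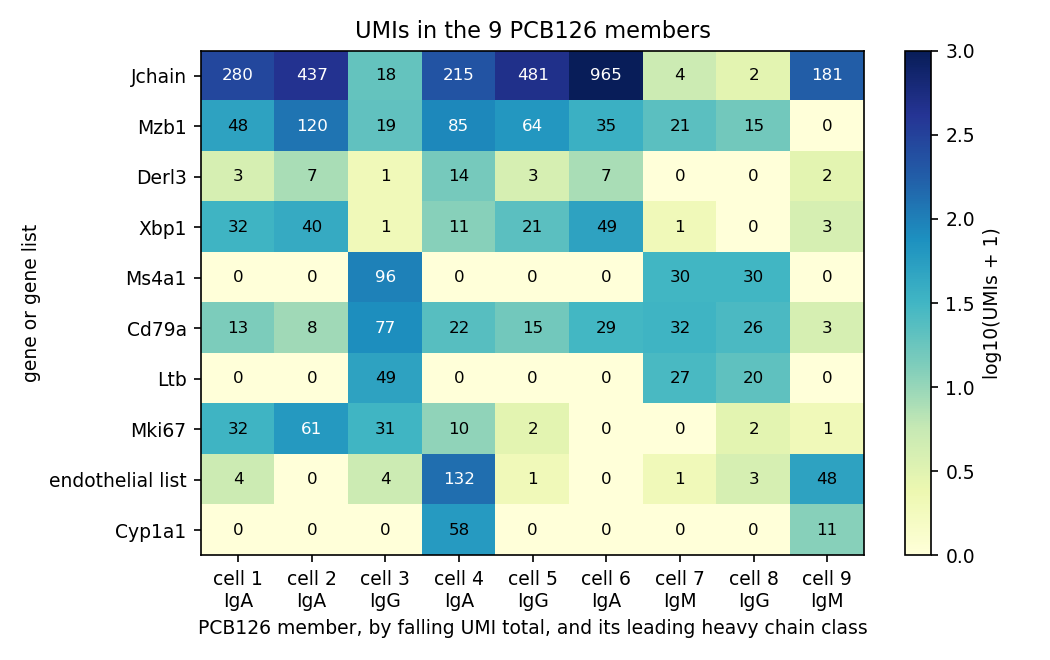
UMIs of plasma cell, B cell, cell cycle and endothelial genes in the 9 PCB126 members (columns, by falling UMI total), with colour showing log10(UMIs + 1) and the UMI count printed in each field. Cells 3, 7 and 8 hold Ms4a1 and Ltb, and cells 4 and 9 hold the endothelial genes and Cyp1a1.

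Cyp1a1, the classic target of the aryl hydrocarbon receptor that PCB126 binds, appeared in 2 of 9 PCB126 members and in 0 of 55 Control members. It had 58 UMIs in cell 4 and 11 in cell 9, which are the cells that carried endothelial transcripts, and 0 in the other 7 members. Among the other PCB126 cells 694 of 1140 (60.9%) held Cyp1a1, and among the PCB126 B cells 1 of 53 held it, with 26 UMIs. Whether the endothelial transcripts and Cyp1a1 of cells 4 and 9 share a source was not tested. Tiparp, a further target of the receptor, had 20 UMIs in 6 PCB126 members and 126 in 38 Control members, a ratio of 0.837 (0.495 to 1.35). The receptor gene Ahr had 3 and 35 UMIs, a ratio of 0.452 (0.0890 to 1.43).

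Between the libraries, the PCB126 members were higher for 94 of 2677 genes (3.51%) and the Control members for 58 (2.17%), or 120 and 35 when scaled by all UMIs. The next 2 choices of cells bear on the mixed makeup of the 9 cells, both chosen after the data had been seen. With members of at least 10% immunoglobulin (5 PCB126 and 49 Control cells) the counts were 49 of 1878 (2.61%) and 24 (1.28%). With members under 10 Ms4a1 and under 20 endothelial UMIs (4 PCB126 and 52 Control cells) they were 70 of 2145 (3.26%) and 32 (1.49%). Over all genes the median log2 ratio was 0.08, 0.15 and 0.08 in these 3 settings.

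Genes of the secretory route stood lower in the PCB126 members. The ER chaperone list lay below 0 for 21 of 22 genes (median -0.71), the translocon list for 24 of 24 (median -0.87) and the degradation list for 12 of 13 (median -0.89). Few single genes passed. Fkbp11 (656 against 40 UMIs), Edem1 (853 against 39), Sel1l, an ER degradation adaptor (360 against 21), and Spcs3, a signal peptidase subunit (545 against 26), were called higher in the Control members. Edem1 was 4.15 times higher there (3.01 to 5.87). It was detected in 55 of 55 Control members, while the PCB126 members held 4, 9, 1, 6, 3, 12, 0, 0 and 4 UMIs. Xbp1 stood at 1771 CPM in the Control members and 857 CPM in the PCB126 members, a ratio of 0.484 (0.409 to 0.570) that was not called.

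The lower level of these lists was smaller in cells chosen for immunoglobulin or for few B cell and endothelial transcripts. At 10% immunoglobulin or more the medians were -0.26 for the chaperones, -0.47 for the translocon list and -0.37 for the degradation list. In the 4 cells with few Ms4a1 and endothelial UMIs they were -0.44, -0.49 and -0.57. By class, the median chaperone share of non-immunoglobulin UMIs was 2.22% (1.30 to 4.39) in the 4 PCB126 IgA cells. The share was 2.13%, 2.18% and 1.00% in the Control IgM, IgG and IgA cells. The PCB126 IgM and IgG cells, which include those with Ms4a1 and Ltb, had 0.617% and 0.497%. Edem1 was lower in PCB126 IgA cells, at 301 CPM against 773, 1476 and 697 CPM in the Control IgM, IgG and IgA cells. The other lists are not given by class. The B cell identity list and Ltb were set by the choice of cells, since both choices leave out the 3 cells with Ms4a1 and Ltb. The list's median was 2.12 over all members, -2.78 at 10% immunoglobulin or more and -1.30 in the 4 cells. The log2 ratio of Ltb went from 4.16 to -0.41 and -1.47.

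**Figure D5:**
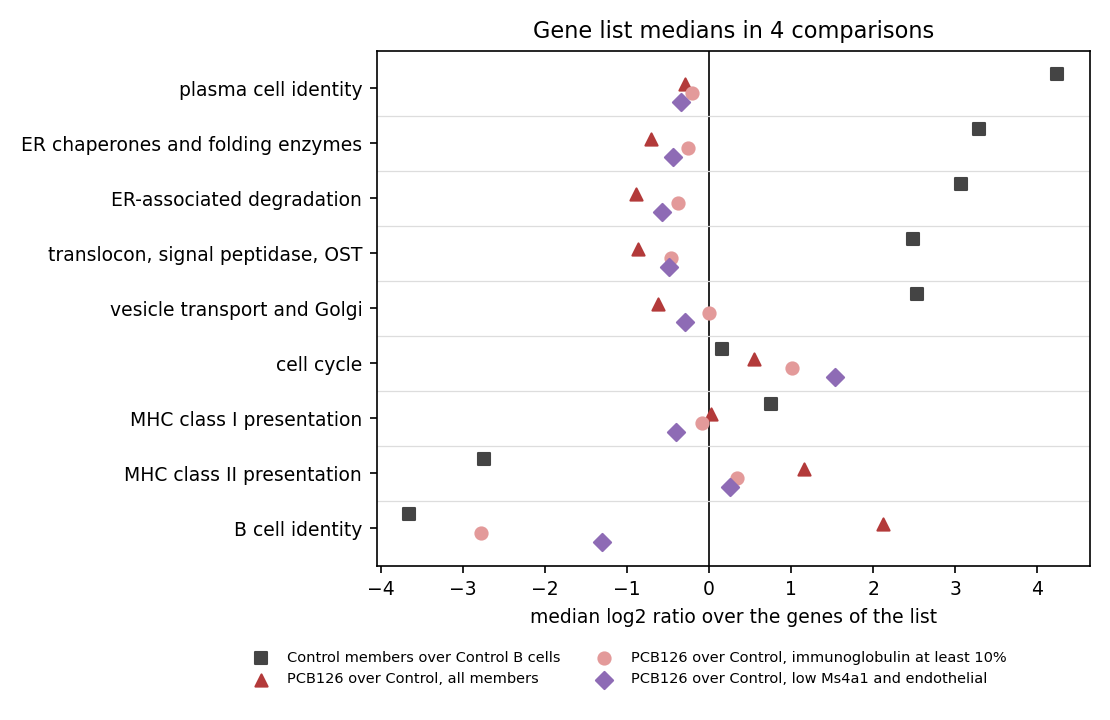
Median log2 ratio of each gene list (horizontal axis) for the Control members over Control B cells (squares) and for the PCB126 members over the Control members under 3 choices of cells (triangles, circles, diamonds). The secretory lists lie between 2.48 and 3.28 in the first contrast and between -0.89 and 0.00 in the others, and the B cell list changes sign with the choice of cells.

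Several transcripts higher in the PCB126 members rested on more than 1 cell. S100a10, a calcium-binding partner of annexin A2, had 75, 146, 41, 22, 0, 14, 27, 12 and 2 UMIs in cells 1 to 9 and 84 UMIs in 27 of 55 Control members, a ratio of 21.3 (16.7 to 27.4). Anxa2, which encodes that annexin, had 107 UMIs in 8 of 9 and 11 UMIs in 8 of 55, a ratio of 51.3 (27.6 to 106). Itgb7, the beta chain of the gut-homing integrin, had 49 UMIs in 8 of 9 PCB126 members and 12 UMIs in 6 of 55 Control members, a ratio of 21.5 (11.3 to 44.5). Of those 12 UMIs, 6 lay in 2 of the 3 Control IgA cells. Its partner chain Itga4 was 2.42 times higher (2.04 to 2.85). Pycard, the inflammasome adaptor ASC, had 392 UMIs in 8 of 9 PCB126 cells and 167 in 35 of 55 Control cells, a ratio of 12.4 (10.3 to 14.9).

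S100a10, Anxa2, Itgb7 and Pycard kept their direction in both alternative choices of cells. In the 4 cells with few Ms4a1 and endothelial UMIs the ratios were 29.5, 62.5, 24.7 and 17.1. Heavy chain class differed between these groups, with 3 of the 4 PCB126 cells led by Igha and 41 of all 55 Control members by Ighm. The 3 Control IgA cells held more of these transcripts than the 41 Control IgM cells: S100a10 stood at 424 against 82.2 CPM, Pycard at 999.8 against 110.01 CPM, Anxa2 at 121 against 5.06 CPM and Itgb7 at 182 against 6.32 CPM. In the 4 PCB126 IgA cells they stood at 2493, 3395, 931 and 369 CPM. The Control IgA values rest on 14, 33, 4 and 6 UMIs, and how far class accounts for the ratios was not tested beyond these values.

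Other high ratios rested on 1 or 2 cells. Ifitm1, an interferon-induced membrane protein, had 231 of its 267 UMIs in cell 2 and 35 in cell 4. Ptprb, an endothelial phosphatase, had 40 and 15 of its 59 UMIs in cells 4 and 9, and Selenop, a plasma selenoprotein, had 83 and 23 of its 108 there. In the 4 cells without many endothelial UMIs the log2 ratio of Selenop was -1.92, against 3.47 over all 9.

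The genes higher in the Control members were led by haemoglobin. The erythrocyte list had 3262 UMIs in the Control members and 9 in the PCB126 members, and 2320 of the 3262 came from Control cell 50, a member with 6382 UMIs in all and 18.0% mitochondrial UMIs. Hbb-bs was still detected in 50 of 55 Control members and in 3 of 9 PCB126 members. In the B cells the erythrocyte list went the other way. It stood at 545 CPM in the Control B cells and 8090 CPM in the PCB126 B cells, with 4 of 4 genes called. The heat shock gene Hspa1a had 121 UMIs in 18 Control members and 0 in the PCB126 members, at least 7.65-fold higher. It was also higher in the Control B cells, with 55 UMIs against 8 in the PCB126 B cells, 8.88 times (4.20 to 21.6). Chst1, a sulfotransferase, had 69 UMIs in 28 Control members and 0 in the PCB126 members. The 9 PCB126 members held 0 UMIs of the neutrophil list, and the Control members held 96.

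The cell cycle list lay above 0 for 13 of 14 genes between the libraries (median 0.54), with none called. In members of at least 10% immunoglobulin the median was 1.01 with 1 called, and in the 4 cells with few Ms4a1 and endothelial UMIs it was 1.54 with 14 of 14 above 0 and 5 called. The list rested on cells 1 and 2, without which in turn its median was 0.12 and 0.05. Mki67 had 32, 61, 31, 10, 2, 0, 0, 2 and 1 UMIs in PCB126 cells 1 to 9. Cells 1 and 2, both IgA, had cell cycle shares of 0.931% and 0.873%, above the highest Control member (0.815%). Their immunoglobulin shares were 6.98% and 11.9%.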

How the data were processed

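The deposited matrices hold raw counts (UMIs) per gene and barcode, written by Cell Ranger 6.0.0 per the file headers; Seurat 4.0.1 and Cell Ranger 6.1.1 are listed in the submitters' processing notes. The other deposited files hold gene and barcode identifiers in matrix order. Their genome build was not given in those sources. The Control and PCB126 matrices held 8550 and 4307 barcodes with 24134912 and 16269562 UMIs. The members and gene lists were chosen with earlier results of these data known. UMIs were summed per group of cells and scaled to counts per 1e6 UMIs outside 395 immunoglobulin genes. Ratios have exact conditional binomial 95% intervals, log2 ratios add 0.5 counts, and a sum of 0 was set to 3 counts for a bound. List medians used genes with at least 20 UMIs and at least 4 such genes. Named genes were, per direction, the 12 ranked by the interval bound nearest 1, detected in at least 25% of the higher group, with immunoglobulin, mitochondrial, ribosomal and rule genes left out; list genes and those described per cell were named after their values were seen. B cells needed at least 5 UMIs and dendritic cells at least 4 UMIs of their markers. The ratio call was tested on simulated data. Python 3.11.15, numpy 2.4.6, scipy 1.17.1, pandas 2.3.3, scanpy 1.11.5 and matplotlib 3.10.9 were used.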

Additional observations from a re-analysis of the deposited data

How the results depend on the processing

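With 9 PCB126 members and 1 library per group, depth and cell number limit what can be seen. No paired analysis was possible because each group is 1 library. The Control and PCB126 member shares were 3.81% and 1.97% at most 10% mitochondrial UMIs. The member share ratio, Control over PCB126, was 1.94 there, 6.41 at most 50%, and 5.69 with a marker sum of 15 per 5000 UMIs. Genes higher in the PCB126 and in the Control members numbered 162 at a minimum of 20 UMIs (PCB126), 31 and 29 at 200 UMIs, 35 with CPM of all UMIs (Control), 49 and 24 in members of at least 10% immunoglobulin, and 32 (Control) with few Ms4a1 and endothelial UMIs. Without 1 PCB126 member they ranged from 67 to 104 and from 42 to 68. The B cell list median reversed to -2.78 and -1.30 in those 2 choices of cells, Ltb to -0.41 and -1.47, and Selenop to -1.92 in the second. Against B cells the counts were 158 and 237 (CPM of all UMIs), 226 lower (minimum of 20 UMIs), and 138 and 29 (200 UMIs). For IgG over IgM they were 5 and 93 (CPM of all UMIs), 31 lower (mean over cells), 21 higher (20 UMIs), and 3 and 21 (200 UMIs). Without 1 IgG cell they ranged from 8 to 15 and from 40 to 100. Scaling by all UMIs moved the median log2 ratio of all genes, PCB126 over Control members, from 0.08 to 0.27. The causes were not tested. The planned contrast by Siglech was not run, since 0 members had a Siglech UMI.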

Other observations

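The Control library held 2 further cells with at least 5% immunoglobulin UMIs that were no members (0.106% of its cells), and the PCB126 library held 0 such cells. One is the cell with 151 S100a8 and S100a9 UMIs, in which 602 Jchain UMIs and an immunoglobulin share of 29.2% stood beside the neutrophil genes. The homing receptor genes Ccr10 and Cxcr4 had few UMIs in the members, though Cxcr4 was detected in 26 of 55 Control members. Ccr10, a receptor known from IgA plasma cells of mucosa, had 14 UMIs in 8 Control members and 12 UMIs in 4 PCB126 members, a ratio of 4.52 (1.91 to 10.5), and those 4 were the Igha cells. Within the IgA cells alone it was not higher in the PCB126 library. There it stood at 116 CPM, against 151 CPM in the Control IgA cells (5 UMIs in 2 of 3 cells). Cxcr4, which retains plasma cells in bone marrow, had 68 and 6 UMIs, a ratio of 0.466 (0.165 to 1.07). Klf2, a factor of lymphocyte trafficking, had 177 and 119 UMIs, 3.55 times higher in the PCB126 members (2.79 to 4.50).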
